A study of Homo sapiens and Mus musculus with 36 samples.

Results

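The lysosome genes described here are 32 genes chosen by symbol: 19 hydrolases, 5 lysosomal membrane proteins (LAMP1, LAMP2, NPC1, MCOLN1 and SCARB2), 5 subunits of the proton pump (ATP6V0D1, ATP6V1A, ATP6V1B2, ATP6V1H and ATP6AP1), the 2 lumenal lipid-binding proteins PSAP and NPC2, and the regulator TFEB. They were 32 of 26868 gene names listed in at least 1 human table. The mouse tables listed 16699 gene names, and 31 of the 32 genes had a row in them. Ctsl was not analysed there.

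The series measured RNA by sequencing in 36 libraries, 18 groups of 2, from HepG2 and Huh7, human liver cancer cell lines, and from mouse B-lymphoma cells (WEHI-231). MS7126 is labelled as a PROTAC against EZH2, that is, a compound designed to send its target to the proteasome; EZH2 is the histone methyltransferase of the Polycomb complex PRC2. HepG2 cells received 5 uM MS7126, its matched enzymatic inhibitor C24, the non-PROTAC analogs MS7126N1 or MS7126N2, or DMSO for 48 h. Huh7 cells received 5 uM MS7126 or DMSO; their own label gives 24 h and another label of the series 48 h, so the Huh7 time is uncertain. WEHI-231 cells received 1 uM of the EZH2 PROTAC MS8815, the inhibitor EPZ-6438, the non-PROTAC analog MS8815N, or DMSO for 16 h. The hairpin groups carried pLKO.1-puro lentivirus under puromycin selection: shEZH2 in HepG2 and Huh7, and 3 hairpins against SREBP2 (gene SREBF2; #664, #665 and #667) in HepG2. Their control, shControl, is called an empty vector in some labels and a scramble in others. The 4 compound groups of HepG2 share 1 pair of DMSO libraries, the 4 hairpin groups of HepG2 share 1 pair of shControl libraries, and the 3 WEHI-231 groups share 1 pair of DMSO libraries. Whether paired libraries are separate cultures is not labelled; the p-values then cover no more than the variation from library to library, which may be technical.

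Lysosomes are acidic compartments in which hydrolases break down proteins, lipids and sugars delivered by endocytosis and autophagy. The V-ATPase, a proton pump with a membrane (V0) and a cytosolic (V1) sector, acidifies them, and heavily glycosylated proteins such as LAMP1 and LAMP2 line their membrane. TFEB, a basic helix-loop-helix factor, drives many of these genes through E-box sequences of the CLEAR type, while cholesterol set free from lipoproteins by LIPA leaves the lysosome through NPC2 and NPC1, which ties the organelle to the SREBP2 pathway.

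The promoters that hold a CLEAR-type E-box are shown because they are the part of the gene set with the sequence that TFEB is known to bind. RefSeq promoter windows (GRCh38.p14, 250 bases before to 50 after a start) were matched for 21 of the 32 genes, those unmatched being CTSB, HEXA, ASAH1, NAGLU, ARSA, MANBA, LAMP2, ATP6V1A, ATP6V1B2, ATP6V1H and PSAP. The E-box CACGTG, which reads the same on both strands, was present in 7 of the 21 (33.3%), against 8.77% of 27305 genes with a window. The longer TCACGTG, searched on both strands and always overlapping CACGTG, was found in the same 7 genes, against 4.49% of all genes. Excerpts on the gene's strand are given 5′ to 3′, with capitals on TCACGTG, its reverse complement CACGTGA, or both where they overlap.
ATP6V0D1: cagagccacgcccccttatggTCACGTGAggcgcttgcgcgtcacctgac
CTSA: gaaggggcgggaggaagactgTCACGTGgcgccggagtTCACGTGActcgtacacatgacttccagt
CTSD: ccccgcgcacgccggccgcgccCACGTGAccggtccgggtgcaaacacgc
GAA: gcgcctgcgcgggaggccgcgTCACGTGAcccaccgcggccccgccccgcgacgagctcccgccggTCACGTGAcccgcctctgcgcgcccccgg
LAMP1: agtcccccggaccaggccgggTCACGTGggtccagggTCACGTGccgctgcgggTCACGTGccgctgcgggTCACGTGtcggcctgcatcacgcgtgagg
MCOLN1: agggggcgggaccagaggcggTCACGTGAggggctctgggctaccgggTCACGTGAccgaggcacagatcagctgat
NEU1: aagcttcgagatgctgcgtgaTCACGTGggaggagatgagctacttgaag
These lie at chr16:67481189-67481238 on the minus strand for ATP6V0D1, chr20:45891271-45891337 on the plus strand for CTSA, chr11:1763947-1763996 on the minus strand for CTSD and chr17:80101483-80101577 on the plus strand for GAA. LAMP1 is at chr13:113297025-113297124 and MCOLN1 at chr19:7522561-7522637, both on the plus strand, and NEU1 at chr6:31862920-31862969 on the minus strand. The LAMP1 window held 6 copies of CACGTG, of which the excerpt shows 4, those of CTSA, GAA and MCOLN1 held 2, and the other 3 held 1. The copy farthest upstream began 192 bases before the start in LAMP1 and 126 bases before it in NEU1, and between 41 and 76 bases before it in the other 5. The windows of NPC2, LIPA, GLA and CTSC, whose values are given below, do not contain these letters.

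The targeted gene was checked first. In Huh7, EZH2 had 13.3 and 14.0 CPM (counts scaled to a common library total) in the shEZH2 libraries, against 82.6 and 89.7 CPM in shControl, or 15.8% of control. In HepG2 the label was not borne out: in the authors' deposited table EZH2 had a log2 change of 0.90 (SE 0.38, adjusted p = 0.0337) in the libraries labelled shEZH2, which is higher than shControl. SREBF2 fell by 1.58, 1.08 and 2.35 on the log2 scale with #664, #665 and #667 in the authors' deposited tables. Hepatocyte markers (8 of 8) were at or above 1 CPM in every human table and B-cell markers (7 of 7) in every WEHI-231 table. Library totals of the Huh7 hairpin experiment, whose table holds estimated counts per library, ran from 10106231 to 11954361. For the other 12 comparisons only the authors' comparison values were analysed, whose mean normalized counts sum to between 16686600 and 40979200 per table. Group levels for these were rebuilt from the deposited mean and fold change and carry no spread between libraries. The libraries are bulk RNA, in which fewer cells of a type and less RNA per cell cannot be told apart. Throughout, a gene is said to rise or fall where its adjusted p was under 0.05.

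**Figure D1:**
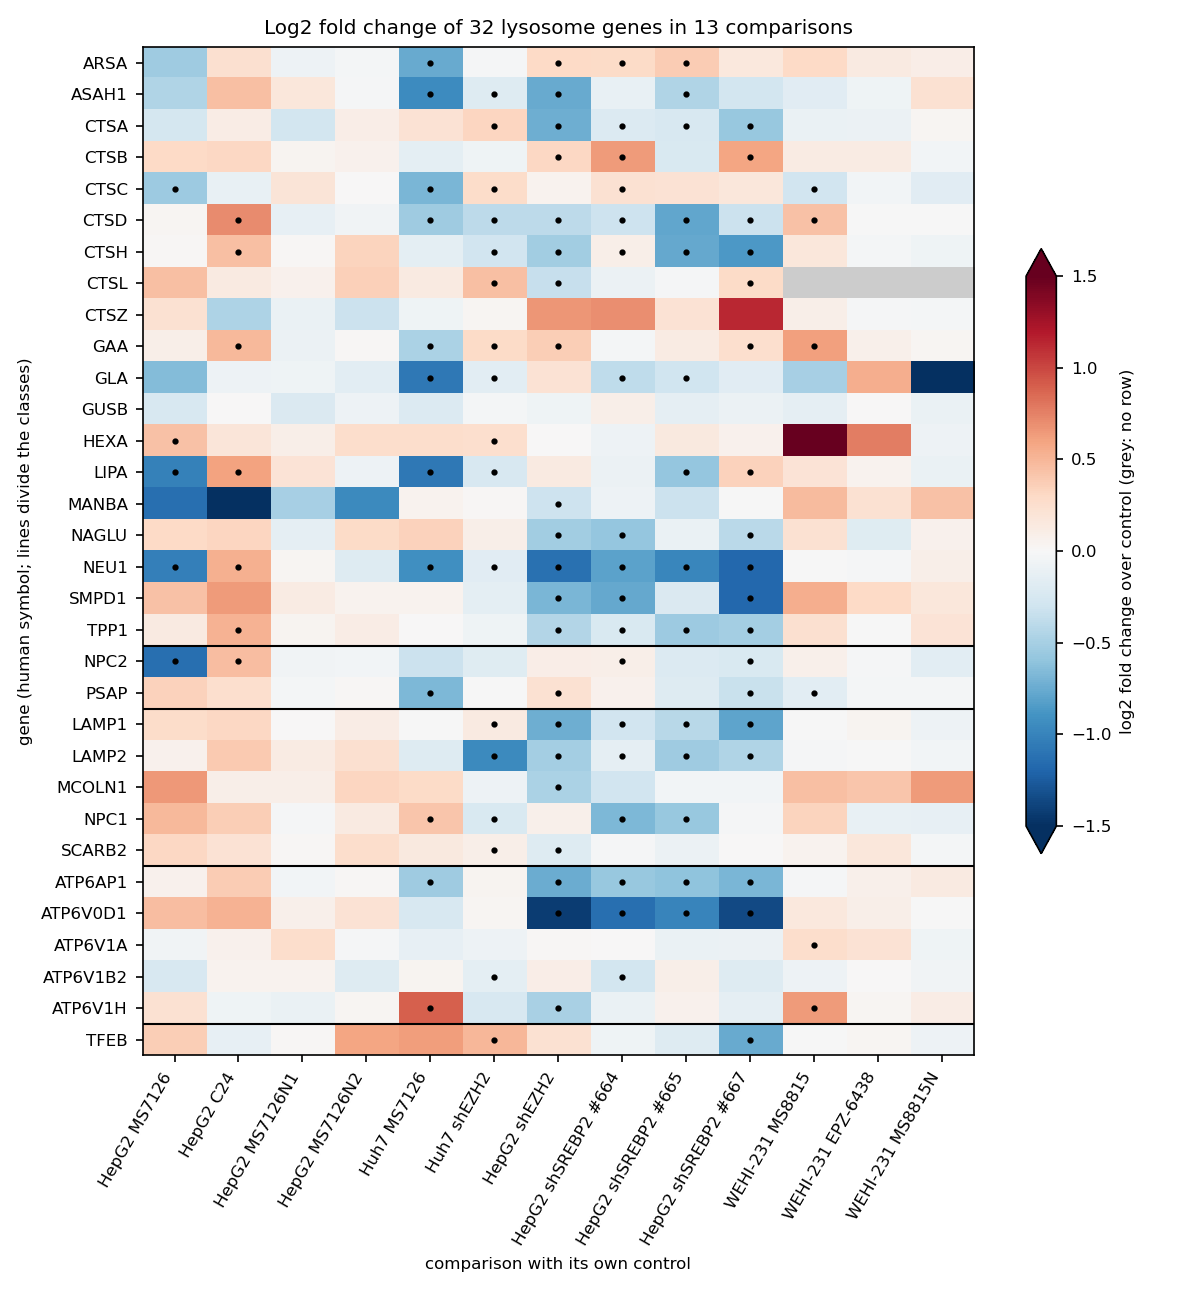
Log2 fold change over the own control for the 32 lysosome genes (rows, ordered by class, with black lines between classes) in the 13 comparisons (columns); red is higher and blue lower than control, a dot marks an adjusted p under 0.05, the colour scale ends at 1.5 on either side and grey marks Ctsl, which has no mouse row. NEU1 and ATP6V0D1 are blue with dots in all 4 HepG2 hairpin columns, and the columns of MS7126N1, MS7126N2, EPZ-6438 and MS8815N have no dots.

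In HepG2, the PROTAC MS7126 moved 16.1% of the tested lysosome genes past the threshold, near the 15.5% of all tested genes. The genes that fell encode lumenal proteins. No membrane protein or pump subunit of the set was called, but with 5 genes in each class this does not set them apart. Other genes of these classes, given below, did rise. NPC2, which hands cholesterol from the lumen to NPC1, had a rebuilt level of 968 normalized counts under MS7126, against 2123 under DMSO. Its log2 fold change in the authors' deposited table was -1.13 (SE 0.18, adjusted p = 2.65e-08). NEU1, the sialidase that trims sialic acid from glycoproteins, stood at 1896 normalized counts under MS7126 and 3873 under DMSO, a log2 fold change of -1.03 (SE 0.15) in the authors' deposited table. LIPA, the acid lipase that frees cholesterol from lipoprotein esters, fell by 1.02 on the log2 scale (SE 0.23), with 273 normalized counts under MS7126 and 553 under DMSO, by the authors' deposited table. CTSC, a dipeptidyl peptidase, fell by 0.55 (SE 0.14), and HEXA, a beta-hexosaminidase subunit, had a log2 change of 0.44 (SE 0.16, adjusted p = 0.0386) in the authors' deposited table. The HEXA call was lost at an adjusted p of 0.01 and when the adjustment ran over every gene with a p-value (adjusted p = 0.0547).

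Of the 31 genes with an adjusted p for MS7126 in HepG2, 4 fell and 1 rose in the authors' deposited table, where 8.06% of all tested genes fell and 7.44% rose. By class, 3 of 18 hydrolases fell and 1 rose, NPC2 fell and PSAP did not pass, and 0 of 5 membrane proteins and 0 of 5 pump subunits changed. The median log2 fold change of the 32 genes was 0.08, against 0.01 over all tested genes, so the falls were limited to a few genes. LAMP1, the abundant membrane glycoprotein, had a value of 0.28 (SE 0.19) and CTSD, the main aspartic protease, 0.03 (SE 0.20) in the authors' deposited table; neither passed. TFEB itself had 0.37 (SE 0.34), which did not pass in the authors' deposited table.

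The matched inhibitor C24, at the same dose and time, raised several hydrolases and NPC2. Of 28 genes with an adjusted p, 7 rose and 0 fell in the authors' deposited table, against 3.01% of all tested genes that rose and 4.01% that fell. The risers were 6 of 16 hydrolases and NPC2, while 0 of 4 membrane proteins and 0 of 5 pump subunits passed. With so few genes in the last 2 classes, this does not set them apart. The median log2 fold change was 0.31 for hydrolases, 0.30 for membrane proteins and 0.07 for pump subunits. CTSD had the largest value among the risers, with a rebuilt level of 3992 normalized counts under C24 and 2445 under DMSO, with a log2 change of 0.71 (SE 0.17, adjusted p = 0.00125) in the authors' deposited table. LIPA followed at 0.60 (SE 0.19) and NEU1 at 0.53 (SE 0.11) in the authors' deposited table. TPP1, a tripeptidyl peptidase, had 0.53 (SE 0.16), GAA, the acid glucosidase that degrades glycogen, 0.49 (SE 0.16), and CTSH, an aminopeptidase, 0.45 (SE 0.15) by the authors' deposited table. NPC2 had 0.47 (SE 0.14) in the authors' deposited table, with 2887 normalized counts under C24 and 2090 under DMSO.

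The median over the 32 genes under C24 was 0.28, against 0.00 over all tested genes, and 26 of 32 lay above 0. LAMP1, at 0.30 (SE 0.16), and TFEB, at -0.12 (SE 0.35), did not pass in the authors' deposited table. Of the 7 risers, 2 stayed under a stricter adjusted p of 0.01, and 4 passed when the adjustment ran over every gene with a p-value; CTSH, GAA and LIPA did not pass that wider adjustment. The authors' deposited table gives no adjusted p for CTSZ, SMPD1, MANBA and MCOLN1 under C24, nor for MANBA under MS7126.

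Neither analog changed a lysosome gene past the threshold. With MS7126N1, 0 of 32 genes passed in the authors' deposited table, where 0.0744% of all genes rose and 0.0850% fell, and 0 of the 32 had an unadjusted p under 0.05, against 435 of 18817 genes. With MS7126N2, 0 of 31 passed in the authors' deposited table, where 0.362% of all genes rose and 0.341% fell, and again 0 had an unadjusted p under 0.05, against 759 genes in all. NEU1, LIPA and NPC2 had values of 0.02, 0.20 and -0.06 with MS7126N1 and of -0.19, -0.08 and -0.05 with MS7126N2 in the authors' deposited tables. CTSD, LAMP1 and TFEB had -0.12, 0.00 and 0.01 with MS7126N1 and -0.05, 0.11 and 0.60 with MS7126N2 in the authors' deposited tables, with a standard error of 0.46 on the last. All 4 compounds share their DMSO libraries, so these values are given side by side only.

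**Figure D2:**
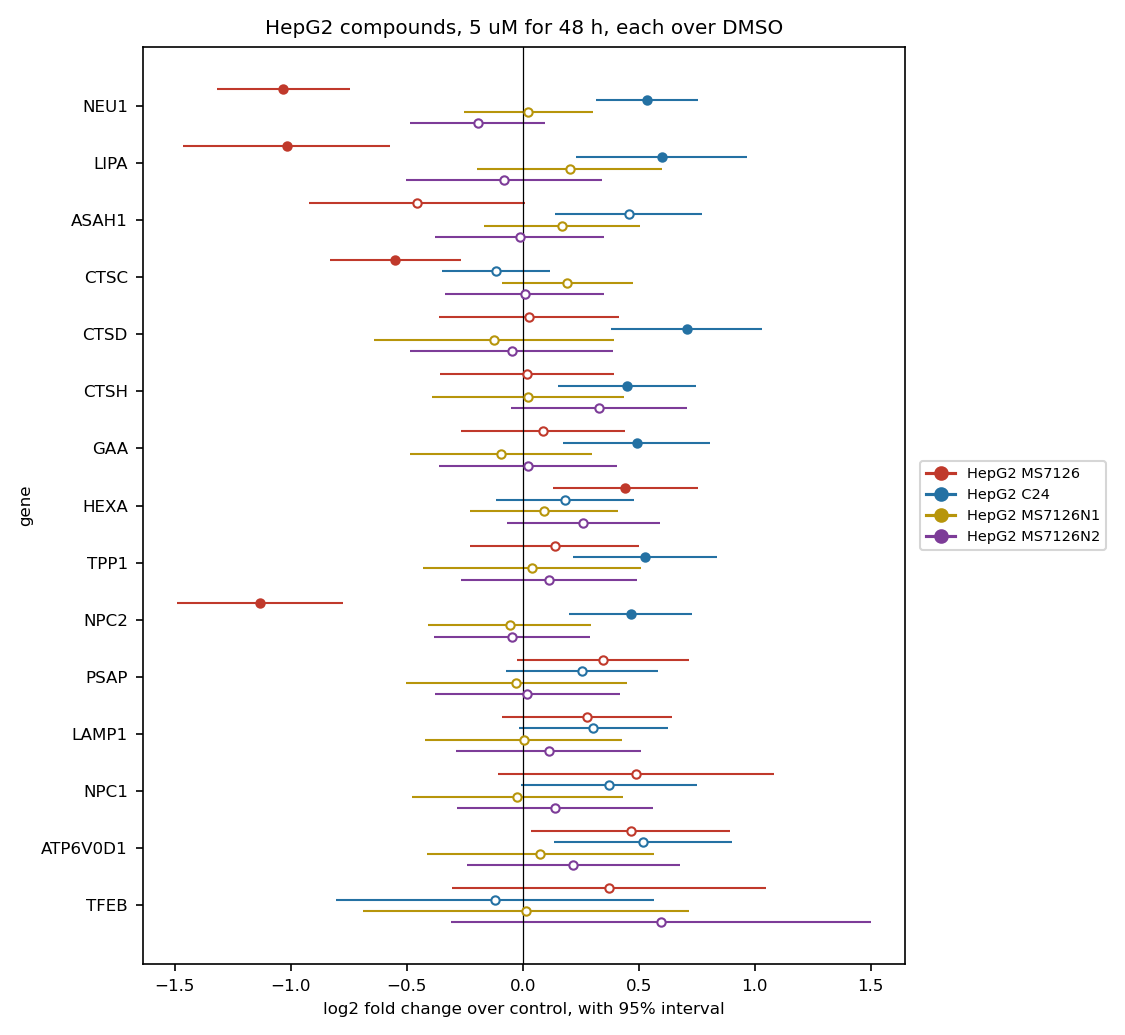
Log2 fold change over DMSO with its 95% interval (horizontal axis) for 15 lysosome genes (vertical axis) under 4 compounds in HepG2 at 5 uM for 48 h; filled points passed an adjusted p of 0.05 and open points did not. NEU1, LIPA and NPC2 lie near -1 under MS7126, near 0.5 under C24 and close to 0 under MS7126N1 and MS7126N2.

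The difference between compounds was tested gene by gene for MS7126 against each of the other 3 at matched dose and time, with p-values adjusted over all genes. MS7126 and C24 differed for 4 of 32 lysosome genes, all lower under MS7126, where 2.84% of all genes were lower and 1.87% higher. LIPA differed by -1.62 on the log2 scale (95% interval -2.20 to -1.04), NPC2 by -1.60 (-2.04 to -1.15) and NEU1 by -1.57 (-1.93 to -1.21). ASAH1, the acid ceramidase, differed by -0.91 (-1.47 to -0.35, adjusted p = 0.0353), although neither compound alone moved it past the threshold. Each of LIPA, NPC2 and NEU1 was thus lower than DMSO under the PROTAC and higher than DMSO under the inhibitor. CTSD differed by -0.68 (-1.19 to -0.17, adjusted p = 0.13), LAMP1 by -0.03 (-0.51 to 0.46) and TFEB by 0.49 (-0.47 to 1.46); none of these passed. The CTSD interval reaches the size of the ASAH1 difference, while those of LAMP1 and TFEB do not extend to a fall of that size.

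Against MS7126N1, MS7126 was lower for LIPA (-1.22), NPC2 (-1.08), NEU1 (-1.06) and CTSC (-0.74), 4 of 32 genes, where 1.93% of all genes were lower and 1.32% higher. Against MS7126N2 it was lower for NPC2 (-1.09) and NEU1 (-0.84), 2 of 32 genes, where 0.909% of all genes were lower and 0.443% higher. LIPA differed from its MS7126N2 value by -0.94 (95% interval -1.55 to -0.32), which did not pass after adjustment (adjusted p = 0.14). NPC2 and NEU1 therefore separated MS7126 from all 3 other compounds. No lysosome gene was higher under MS7126 in any of these 3 differences, but few of all genes were. The 3 differences use the same MS7126 libraries, so they are not independent of each other. The test ignores that the compounds share DMSO libraries. Allowing for that with an assumed covariance raised the counts to 7 against C24 and 4 against MS7126N2, and left 4 against MS7126N1. Over all genes the counts rose as well, from 850 to 1816, from 244 to 744 and from 589 to 1469 in the same order.

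In Huh7 cells given MS7126, hydrolases made up most of the lysosome genes that fell, but they also make up 19 of the 32 genes. Of the 32 genes, 10 fell and 2 rose in the authors' deposited table, where 16.3% of all tested genes fell and 17.5% rose. The falls comprised 8 of 19 hydrolases, PSAP and the pump subunit ATP6AP1, and the rises NPC1 and the pump subunit ATP6V1H. The median of the 32 genes was -0.13, against -0.01 over all tested genes.

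LIPA had a rebuilt level of 462 normalized counts under MS7126 in Huh7 and 973 under DMSO, with a log2 change of -1.08 (SE 0.17, adjusted p = 2.58e-09) in the authors' deposited table. GLA, the galactosidase lost in Fabry disease, stood at 616 under MS7126 and 1293 under DMSO, a value of -1.07 (SE 0.17) in the authors' deposited table. ASAH1 fell by 0.95 (SE 0.15) and NEU1 by 0.92 (SE 0.14) in the authors' deposited table. ARSA, the sulfatase lost in metachromatic leukodystrophy, fell by 0.76 (SE 0.17), CTSC by 0.69 (SE 0.12) and CTSD by 0.53 (SE 0.14) in the authors' deposited table. PSAP, the precursor of the saposins that help lipid hydrolases reach their substrates, was among the most abundant of the 32, with 17183 normalized counts under MS7126 and 27479 under DMSO; it fell by 0.68 (SE 0.13) in the authors' deposited table.

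The pump did not move as a unit in Huh7. ATP6V1H, a regulatory subunit of the cytosolic sector, had a log2 change of 0.89 (SE 0.26, adjusted p = 0.00266), and ATP6AP1, an accessory subunit, one of -0.54 (SE 0.13), in the authors' deposited table. NPC1, the membrane protein that exports cholesterol, had 0.42 (SE 0.13, adjusted p = 0.00571) and was the only membrane protein of 5 to pass in the authors' deposited table. LAMP1, at -0.01 (SE 0.15), and TFEB, at 0.63 (SE 0.31, adjusted p = 0.10), did not pass in the authors' deposited table.

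The response to MS7126 in HepG2 and in Huh7 rests on separate DMSO libraries. LIPA, NEU1 and CTSC fell in both lines, which is 75% of the 4 lysosome genes that fell in HepG2 and 30% of the 10 that fell in Huh7. Over all genes, 643 fell in both, 61.7% of those in HepG2 and 24.7% of those in Huh7, so the shares of lysosome genes were near the shares of all genes. No lysosome gene rose in both, but only 1 rose in HepG2 and 2 in Huh7, too few to compare. Over all genes, 540 rose in both, 56.1% of those in HepG2 and 19.3% of those in Huh7. The difference between lines passed for 2 of 32 genes, 1 higher and 1 lower in HepG2. Over all genes 3.06% were higher and 2.65% lower in HepG2, so the count was near that of all genes. NPC2 had -1.13 in HepG2 and -0.33 in Huh7, a difference of -0.80 (SE 0.23, adjusted p = 0.0139). PSAP had 0.35 in HepG2 and -0.68 in Huh7, a difference of 1.02 (SE 0.23, adjusted p = 0.0006). For LIPA the lines differed by 0.06 (95% interval -0.50 to 0.61) and for NEU1 by -0.11 (-0.51 to 0.29). The Huh7 time is uncertain, so line and time cannot be told apart.

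**Figure D3:**
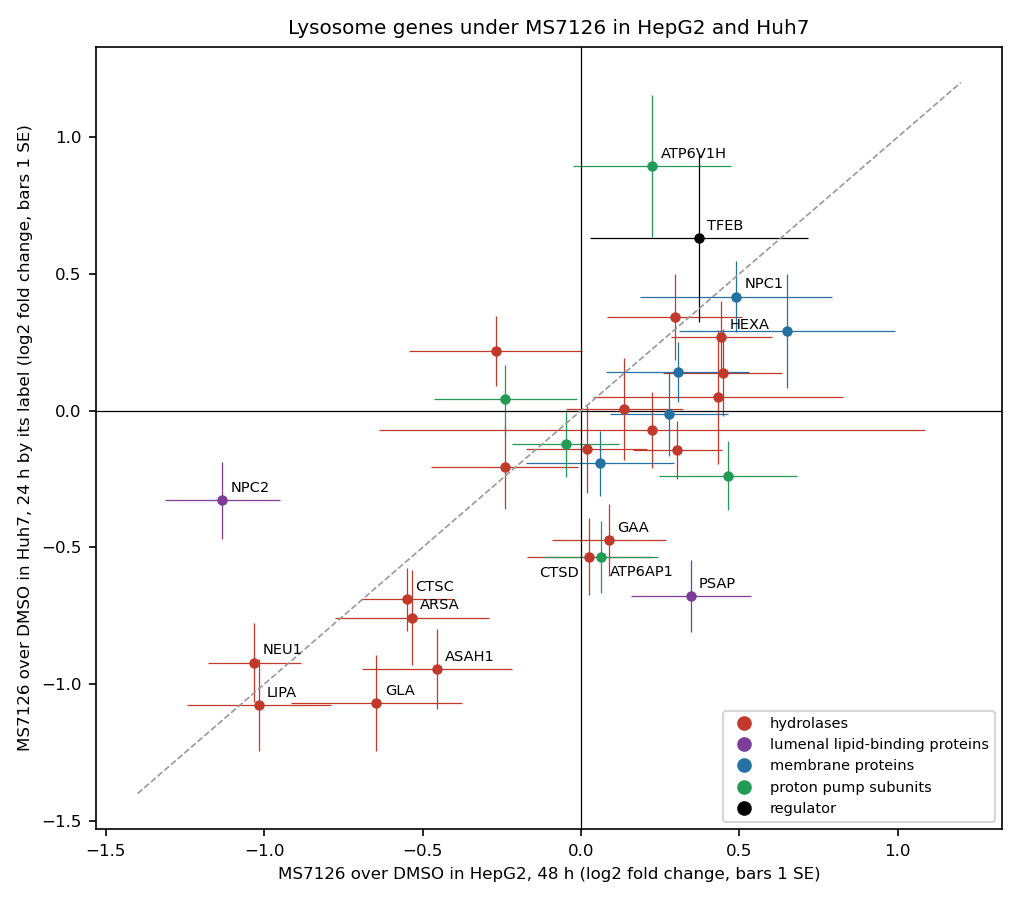
Log2 fold change of lysosome genes under MS7126 over DMSO in HepG2 at 48 h (horizontal axis) and in Huh7 at 24 h by its label (vertical axis), with bars of 1 SE, colours for the classes, names on genes that passed in either line and on TFEB, and a dashed line of equal change; MANBA is left out for its wide error in both lines. LIPA, NEU1 and CTSC lie at the lower left near the dashed line, NPC2 lies low in HepG2, and PSAP lies right of 0 and low in Huh7.

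Other genes of the pathway were counted from lists of 73 genes in 6 groups. For MS7126 in HepG2, 13 of 66 rose and 1 fell in the authors' deposited table, where 7.44% of all tested genes rose and 8.06% fell. Of 10 autophagy genes tested, 5 rose, led by MAP1LC3B, the membrane-bound autophagosome marker, at 1.78 (SE 0.19), and GABARAPL1, a relative of it, at 1.42 (SE 0.35) in the authors' deposited table. Of 11 other membrane proteins 4 rose, with the cystine exporter CTNS at 0.99 and the arginine-sensing SLC38A9 at 0.96 in the authors' deposited table. Of 11 other pump subunits 3 rose, with ATP6V0A2 at 0.93 and ATP6V1C1 at 0.80 in the authors' deposited table. AGA, a glycoprotein hydrolase, had 1.13, and GNPTAB, which makes the mannose 6-phosphate tag that sorts hydrolases to lysosomes, -0.75 in the authors' deposited table.

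In Huh7 under MS7126, 20 of 72 of these other genes (27.8%) rose and 13 (18.1%) fell in the authors' deposited table, where 17.5% of all tested genes rose and 16.3% fell, so the share that fell was near that of all genes. Autophagy genes gave 6 rises and 3 falls of 10, with UVRAG at 1.17 and NBR1 at 1.12 in the authors' deposited table. TFE3, a relative of TFEB, had 1.14 (SE 0.11) and FNIP1, a partner of folliculin, 0.63, among 5 rises and 2 falls of 13 other regulators in the authors' deposited table. Pump subunits ATP6V0A2 (0.77) and ATP6V1C1 (0.75) rose, among 4 rises and 1 fall of 11, and SLC38A9 had 1.16 while the sialic acid exporter SLC17A5 had -0.72, in the authors' deposited table. AGA had 0.93 and the iduronidase IDUA -1.15, and both called genes of the enzyme sorting list fell, GNPTAB by 0.85 and the mannose 6-phosphate receptor M6PR by 0.44, in the authors' deposited table. AGA, SLC38A9, ATP6V0A2, ATP6V1C1 and GNPTAB thus passed in the same direction in HepG2 and Huh7.

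With C24, 2 of 58 of these genes (3.45%) rose and 0 fell in the authors' deposited table, near the 3.01% of all tested genes that rose: LAMTOR1, a lysosomal scaffold of mTORC1 signalling, at 0.70 and the autophagy receptor SQSTM1 at 0.60. With MS7126N1, 0 of 71 passed, and 3 had an unadjusted p under 0.05, in the authors' deposited table, where 0.159% of all tested genes passed. With MS7126N2, CLN3, a lysosomal membrane protein, was the 1 of 67 (1.49%) that passed, at 0.91 in the authors' deposited table. Over all tested genes 0.703% passed there.

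The Huh7 hairpin against EZH2 could be followed library by library. Of the 32 lysosome genes, 8 rose and 9 fell by edgeR's quasi-likelihood test on the estimated counts, where 19.5% of all tested genes rose and 19.3% fell. The changes went both ways within the classes: 5 of 19 hydrolases rose and 6 fell, 2 of 5 membrane proteins rose and 2 fell, and 1 of 5 pump subunits fell. The median was -0.04, against 0.00 over all tested genes. The shEZH2 and shControl libraries did not overlap for 28 of the 32 genes, and the same held for 68.6% of all tested genes.

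LAMP2, the membrane protein needed for autophagosome fusion, had 99.5 and 97.2 CPM in shEZH2 and 188.5 and 193.3 CPM in shControl. Both shEZH2 libraries lay far below both shControl libraries, at 51.5% of control, with a log2 change of -0.96 (SE 0.04, edgeR adjusted p = 2.03e-11). LAMP1, its close relative, had 296.4 and 303.6 CPM in shEZH2 and 277.8 and 266.9 CPM in shControl, with no overlap and a log2 change of 0.14 (SE 0.03, edgeR adjusted p = 0.00223). NPC1 averaged 117.7 ± 1.3 CPM in shEZH2 and 137.5 ± 3.7 CPM in shControl (SD, n = 2 each), and SCARB2, the receptor that carries glucocerebrosidase, 243 ± 2.5 CPM in shEZH2 and 229 ± 5.1 CPM in shControl (SD, n = 2 each). Their log2 fold changes were -0.23 (edgeR adjusted p = 0.000329) and 0.09 (edgeR adjusted p = 0.0452).

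CTSD had 404.9 and 408.9 CPM in shEZH2 and 533.8 and 530.9 CPM in shControl, so both shEZH2 libraries were lower, by 0.39 on the log2 scale (SE 0.02, edgeR adjusted p = 4.36e-09). CTSL, a cysteine protease, moved the other way, with 53.7 and 53.4 CPM in shEZH2 and 41.3 and 37.0 CPM in shControl, with a log2 change of 0.45 (SE 0.07, edgeR adjusted p = 6.17e-05). CTSA, the protective protein that binds NEU1 and a galactosidase, was higher in both shEZH2 libraries, at 239.8 and 237.2 CPM, than in shControl, at 195.1 and 187.5 CPM, with a log2 fold change of 0.32 (SE 0.03). GAA had a log2 change of 0.29 (SE 0.04) and CTSC of 0.28 (SE 0.03), while CTSH had one of -0.29 (SE 0.07, edgeR adjusted p = 0.00556).

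ATP6V1B2, a nucleotide-binding subunit, averaged 124.6 ± 1.9 CPM in shEZH2 and 137.5 ± 3.1 CPM in shControl (SD, n = 2 each) and was the only pump subunit to pass. That call was lost with DESeq2 (adjusted p = 0.0981), in the authors' deposited table (adjusted p = 0.0949), and without shEZH2 replicate 2 (edgeR adjusted p = 0.0562) or shControl replicate 2 (edgeR adjusted p = 0.0677). TFEB had 8.55 and 7.40 CPM in shEZH2 and 5.26 and 6.09 CPM in shControl, with a log2 change of 0.49 (SE 0.17, edgeR adjusted p = 0.0355) on 59 to 97 counts a library. The call on TFEB was lost when shEZH2 replicate 1 (adjusted p = 0.18) or shControl replicate 1 (adjusted p = 0.19) was left out, and in the authors' deposited table (adjusted p = 0.25). PSAP, the most abundant of the 32, had 1398.7 and 1398.9 CPM in shEZH2 and 1410.0 and 1399.4 CPM in shControl, a log2 fold change of -0.01 (SE 0.02) that did not pass. NPC2 averaged 44.9 ± 2.2 CPM in shEZH2 and 51.0 ± 4.0 CPM in shControl (SD, n = 2 each) and had an edgeR adjusted p of 0.0525.

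Summed over each class, hydrolases took 2488 and 2490 CPM in shEZH2 and 2528 and 2504 CPM in shControl. Membrane proteins took 778 and 787 CPM in shEZH2 and 864 and 845 CPM in shControl, and LAMP2 alone fell by more than that gap. Pump subunits took 501 and 487 CPM in shEZH2 and 512 and 518 CPM in shControl. In each of the 3 classes both shEZH2 sums lay below both shControl sums, and the sums are a description with no test.

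**Figure D4:**
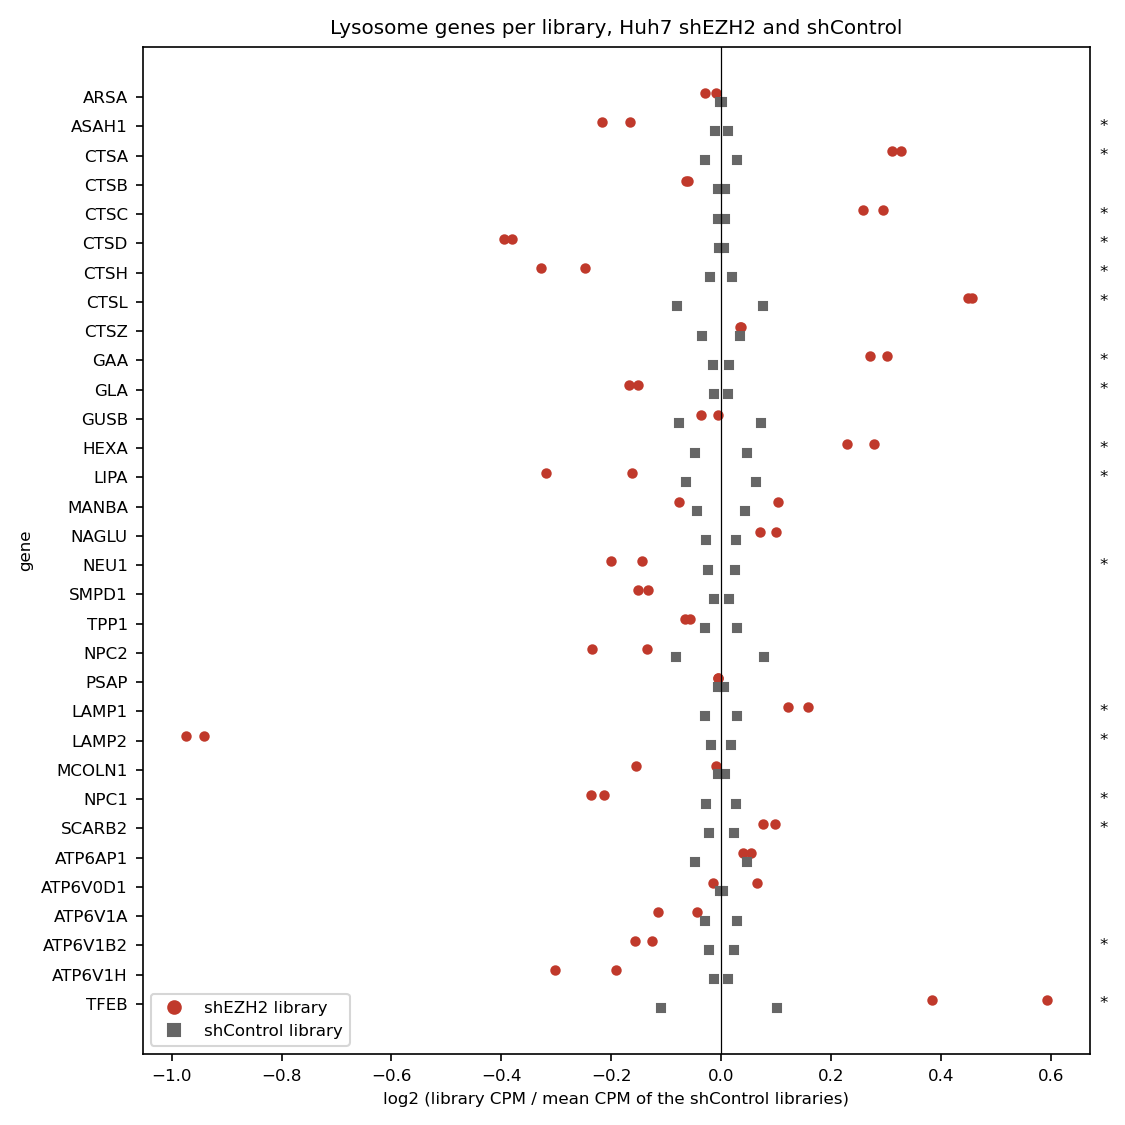
Each of the 4 Huh7 hairpin libraries for each of the 32 lysosome genes (vertical axis), as log2 of its CPM over the mean CPM of the shControl libraries (horizontal axis); red circles are shEZH2, grey squares shControl, and an asterisk marks an edgeR adjusted p under 0.05. LAMP2 lies near -1 in both shEZH2 libraries, while CTSL and TFEB lie on the right of 0.

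Of 72 other lysosome pathway genes in the Huh7 hairpin experiment, 17 (23.6%) rose and 20 (27.8%) fell by edgeR's quasi-likelihood test, against 19.5% and 19.3% of all tested genes. CTSF, a cysteine protease, had a log2 fold change of 1.45 and PPT1, a thioesterase, one of 0.45. CD68 had 0.97 and LAPTM4B 0.74 among other membrane proteins, of which 4 rose and 5 fell of 12. Of 11 other pump subunits 0 rose and 4 fell, with ATP6V0C at -0.46 and ATP6V0A2 at -0.36. Genes of enzyme processing and sorting included SUMF1, which activates sulfatases in the endoplasmic reticulum, at -0.34 and NAGPA, which uncovers the mannose 6-phosphate tag, at -0.33, regulators ZKSCAN3 at -0.53 and FNIP2 at 0.31, and autophagy genes WIPI1 at 0.33 and OPTN at -0.32.

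In HepG2 the 4 hairpin groups were compared with 1 shared shControl pair. Counts of lysosome genes leaned downward in each of the authors' deposited tables. In the libraries labelled shEZH2, 17 of 32 fell and 4 rose, where 28.6% of all tested genes fell and 28.4% rose, in the authors' deposited table. With #664, 13 fell and 5 rose, where 26.8% of all genes fell and 24.9% rose, in the authors' deposited table. With #665, 13 fell and 1 rose, where 20.0% of all genes fell and 18.7% rose, in the authors' deposited table. With #667, 14 fell and 4 rose, where 19.3% of all genes fell and 18.6% rose, in the authors' deposited table. Medians over the 32 genes were -0.25, -0.10, -0.21 and -0.19 in that order, against 0.00, 0.01, 0.01 and 0.01 over all tested genes. Because the control is shared, falls in several of these groups are not independent of each other. In these same groups 5_8S_rRNA had log2 fold changes of 2.35, 1.67, 1.56 and 1.65 in the authors' deposited tables; its part in these results was not tested.

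ATP6V0D1, the subunit that joins the membrane sector of the pump to its stalk, had the lowest values. Its log2 fold change was -1.42 (SE 0.11) in the libraries labelled shEZH2, -1.13 (SE 0.09) with #664, -0.99 (SE 0.17) with #665 and -1.35 (SE 0.13) with #667 in the authors' deposited tables. Its rebuilt level was 498 normalized counts in the libraries labelled shEZH2, against 1332 in shControl. ATP6AP1 fell in all 4, by 0.75, 0.57, 0.60 and 0.69 on the log2 scale in the same order, by the authors' deposited tables. ATP6V1H fell by 0.49 (SE 0.11) in the libraries labelled shEZH2, and ATP6V1B2 by 0.28 (SE 0.08) with #664, by the authors' deposited tables. ATP6V1A, the catalytic subunit, passed in none of the 4.

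Among hydrolases, NEU1 fell in all 4 groups, by 1.12 (SE 0.05) in the libraries labelled shEZH2, 0.80 (SE 0.04) with #664, 0.97 (SE 0.11) with #665 and 1.18 (SE 0.10) with #667 by the authors' deposited tables. Its rebuilt level with #667 was 3954 normalized counts, against 8949 in shControl. CTSA, the binding partner of NEU1, fell by 0.73, 0.20, 0.23 and 0.57 in the same order, CTSD by 0.39, 0.31, 0.78 and 0.32, and TPP1 by 0.45, 0.23, 0.55 and 0.51, by the authors' deposited tables. These 4 hydrolases fell in every hairpin group.

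Other hydrolases differed between the groups. CTSB, the cysteine protease with the highest level of the hydrolases, had 0.31, 0.64, -0.23 and 0.59 in the same order in the authors' deposited tables, where #665 was the group that did not pass. CTSH had -0.52, 0.09, -0.76 and -0.86 in the authors' deposited tables, all past the threshold, with #664 the group of the other sign. SMPD1, the acid sphingomyelinase, had -0.69, -0.76, -0.22 and -1.18 in the authors' deposited tables, and #665 did not pass. LIPA had 0.13 and -0.09, neither past the threshold, in the libraries labelled shEZH2 and with #664, then -0.58 with #665 and 0.35 with #667, both past it, in the authors' deposited tables. ASAH1 fell by 0.76 (SE 0.08) in the libraries labelled shEZH2 and by 0.45 (SE 0.11) with #665, and NAGLU, a heparan sulfate hydrolase, by 0.52 (SE 0.09) in the libraries labelled shEZH2 and by 0.58 (SE 0.08) with #664, by the authors' deposited tables. GLA fell by 0.38 (SE 0.08) with #664 in the authors' deposited table.

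The membrane proteins LAMP1 and LAMP2 fell in every hairpin group of HepG2. LAMP1 fell by 0.73 (SE 0.06), 0.29 (SE 0.04), 0.42 (SE 0.13) and 0.79 (SE 0.10), and LAMP2 by 0.51 (SE 0.07), 0.13 (SE 0.05), 0.54 (SE 0.13) and 0.45 (SE 0.14), in the same order by the authors' deposited tables. LAMP1 had a rebuilt level of 2938 normalized counts with #667, against 5085 in shControl. NPC1 separated the hairpins, with 0.08 in the libraries labelled shEZH2, -0.68 with #664, -0.57 with #665 and -0.01 with #667 in the authors' deposited tables; only #664 and #665 passed. MCOLN1, a calcium channel, fell by 0.48 (SE 0.21) and SCARB2 by 0.19 (SE 0.08) in the libraries labelled shEZH2 in the authors' deposited table. PSAP had 0.23 (SE 0.04) in the libraries labelled shEZH2 and -0.33 (SE 0.09) with #667, and NPC2 0.09 (SE 0.04) with #664 and -0.22 (SE 0.10) with #667, all past the threshold in the authors' deposited tables. TFEB passed with #667 alone, at -0.76 (SE 0.19, adjusted p = 0.000503), and had 0.23, -0.07 and -0.19 in the libraries labelled shEZH2, with #664 and with #665 in the authors' deposited tables. The differences between hairpins were not tested.

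**Figure D5:**
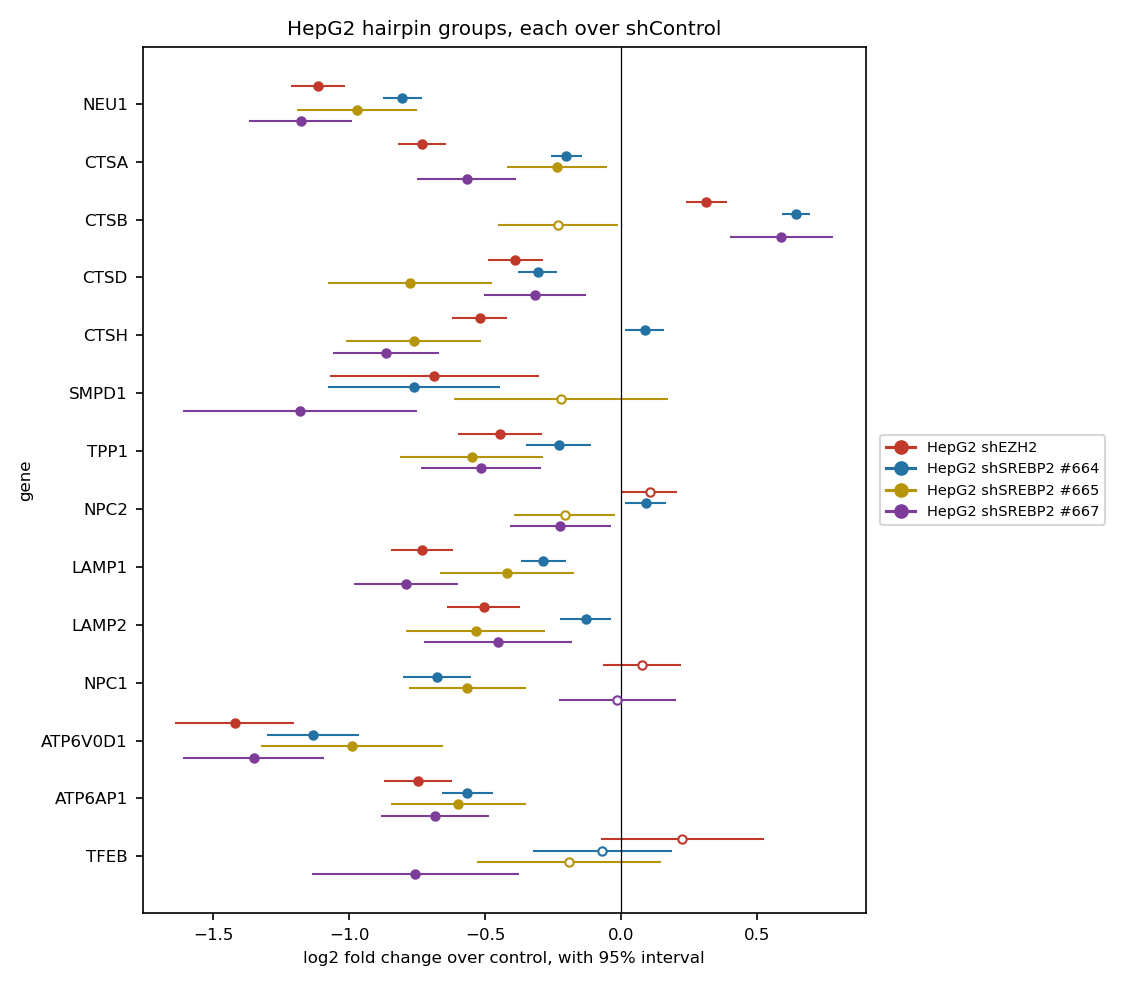
Log2 fold change over shControl with its 95% interval (horizontal axis) for 14 lysosome genes (vertical axis) in 4 HepG2 hairpin groups; filled points passed an adjusted p of 0.05 and open points did not. NEU1, ATP6V0D1, ATP6AP1, LAMP1, CTSA, CTSD and TPP1 lie left of 0 in all 4 groups, while CTSB lies right of 0 in all but #665.

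The promoters printed above were set beside these values. Of the 7 genes whose window holds the E-box, 6 fell and 1 rose in the libraries labelled shEZH2, against 6 falls and 0 rises among the 14 genes whose window lacks it, with median log2 fold changes of -0.73 with the E-box and -0.01 without it, by the authors' deposited table. The falls were 5 of 7 with the E-box and 5 of 14 without it for #664, 5 of 7 and 6 of 14 for #665, and 5 of 7 and 6 of 14 for #667, by the authors' deposited tables. Under C24 in HepG2, 3 of 6 tested genes with the E-box and 4 of 12 without it rose in the authors' deposited table. Under MS7126 in HepG2, 1 of 7 fell with the E-box and 3 of 14 without it, and in Huh7 3 of 7 and 4 of 14, in the authors' deposited tables. In Huh7 shEZH2, 3 rose and 2 fell of the 7 with the E-box, and 4 rose and 4 fell of the 14 without it, by edgeR. Over all tested genes, 28.6%, 26.8%, 20.0% and 19.3% fell in the libraries labelled shEZH2 and with #664, #665 and #667, and 8.06% and 16.3% fell under MS7126 in HepG2 and in Huh7; 3.01% rose under C24, and 19.5% rose and 19.3% fell in Huh7 shEZH2. These counts are a description with no test.

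Other pathway genes fell more often than they rose in the HepG2 hairpin groups. In the libraries labelled shEZH2, 34 of 69 fell and 12 rose; with #664, 34 of 70 fell and 9 rose; with #665, 26 of 69 fell and 5 rose; with #667, 19 of 69 fell and 7 rose, by the authors' deposited tables. These falls are 49.3%, 48.6%, 37.7% and 27.5% of the genes tested in the lists, beside 28.6%, 26.8%, 20.0% and 19.3% of all tested genes in the same order. Of 11 other pump subunits, 9, 8, 6 and 4 fell in the same order and 1, 1, 0 and 1 rose. ATP6AP2, an accessory subunit, had -1.06, -0.55, -0.80 and -0.51 in the authors' deposited tables, and each passed. LAMTOR1 had -1.04 with #664, -1.23 with #665 and -1.17 with #667, and RRAGA, a Rag GTPase, -1.26 in the libraries labelled shEZH2, in the authors' deposited tables. GLB1, the lysosomal beta-galactosidase, had -0.88, -0.84 and -1.05 with #664, #665 and #667 in the authors' deposited tables. BECN1, an autophagy initiator, had -1.22, -1.16, -0.86 and -0.85 in the 4 groups, and LAPTM4A -1.08, -1.04 and -1.14 in the libraries labelled shEZH2, with #665 and with #667, in the authors' deposited tables. CD68, a lysosomal membrane protein best known from macrophages, had -1.03 in the libraries labelled shEZH2, 1.16 with #664 and -1.20 with #665 in the authors' deposited tables, so its sign differed between hairpins; CD14, another macrophage marker, and the rest of that list summed to at most 6.45 CPM in the HepG2 tables.

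In WEHI-231 B cells, MS8815 moved 20.7% of the tested lysosome genes past the threshold, near the 17.1% of all tested genes. Of 29 tested, 4 rose and 2 fell in the authors' deposited table, where 5.34% of all genes rose and 11.8% fell. The risers were 2 hydrolases and 2 pump subunits. Gaa had a rebuilt level of 1713 normalized counts under MS8815 and 1117 under DMSO, with a log2 change of 0.62 (SE 0.10, adjusted p = 1.83e-08) in the authors' deposited table. Ctsd had 1850 under MS8815 and 1361 under DMSO, a log2 fold change of 0.44 (SE 0.09) in the authors' deposited table. Atp6v1h had 0.64 (SE 0.17) and Atp6v1a 0.27 (SE 0.09, adjusted p = 0.0213) in the authors' deposited table. Ctsc, at -0.29 (SE 0.05), and Psap, at -0.16 (SE 0.05), fell in the authors' deposited table. Lamp1, at -0.01 (SE 0.07), and Tfeb, at 0.00 (SE 0.09), did not pass in the authors' deposited table, and 0 of 5 membrane proteins did. The authors' deposited table gives no adjusted p for Gla and Hexa. The median was 0.12, against -0.03 over all tested genes.

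EPZ-6438 and MS8815N moved 0 of 31 lysosome genes past the threshold in the authors' deposited tables, where 0.122% of all genes rose and 0.122% fell with EPZ-6438, and 0.0501% rose and 0.0689% fell with MS8815N. Each had 1 of the 31 with an unadjusted p under 0.05, against 454 and 346 of all genes. Ctsd, Lamp1 and Tfeb had 0.00, 0.04 and 0.03 with EPZ-6438 and 0.00, -0.07 and -0.08 with MS8815N in the authors' deposited tables. In the tested differences, MS8815 exceeded EPZ-6438 for Gaa (0.54 on the log2 scale) and Ctsd (0.45) and was lower for Ctsc (-0.26), 3 of 31 genes, where 0.872% of all genes were higher and 2.22% lower. MS8815 exceeded MS8815N for Gaa (0.59) alone, 1 of 31 genes, where 0.514% of all genes were higher and 1.47% lower. The 3 groups share DMSO libraries, and allowing for that with an assumed covariance raised these counts to 5 and 2. Over all genes the counts rose as well, from 490 to 1210 and from 313 to 921. Of 59 other pathway genes, 3 (5.08%) rose and 1 (1.69%) fell with MS8815 in the authors' deposited table. Over all tested genes 5.34% rose and 11.8% fell, so the share that rose was near that of all genes. The called genes included Sqstm1 at 0.87, the pump subunit Atp6v0a1 at 0.24 and Lamtor1 at -0.26 in the authors' deposited table. None of 61 passed with EPZ-6438 or MS8815N, and 0 had an unadjusted p under 0.05, in the authors' deposited tables.

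NPC2 spans 74476192 to 74494177 on the minus strand of chromosome 14 (GENCODE annotation of GRCh38), NEU1 31857659 to 31862906 on the minus strand of chromosome 6, and LIPA 89213569 to 89414557 on the minus strand of chromosome 10. ATP6V0D1 spans 67438014 to 67481237 on the minus strand of chromosome 16 and LAMP2 120427827 to 120469365 on the minus strand of chromosome X. Exons of 10 of the 32 genes overlap exons of another gene, CTSA, CTSD, ASAH1, NPC1 and TPP1 among the 7 with an overlap on the opposite strand, and whether the counting used strand is not given in the sources used here.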

How the data were processed

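The series holds 36 RNA libraries; the labels give 18 groups of 2. Per the labels' protocols, kits were TruSeq v2 or NEBNext Ultra II. Per the submitters' processing notes, tools included STAR 2.4.2 and Salmon, with builds GRCh38 and mm10. In 12 of 13 tables, per the file headers, the authors deposited for each gene its mean signal in normalized counts, the log2 fold change and SE, a test score, and the p-value before and after adjustment. For Huh7 shEZH2, estimated counts of each library were deposited as well. These were rounded and tested with edgeR 4.0.16 (R 4.3.3; TMM, low counts filtered, quasi-likelihood test, Benjamini-Hochberg adjustment over 14581 genes). There the SE was taken as the absolute log2 change divided by the square root of F. Of that table's rows, 20 held dates in place of symbols and were left out, leaving 15208. DESeq2 1.42.0 was an alternative.

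Group levels in the other tables were rebuilt from the deposited mean and log2 fold change. For Huh7 shEZH2 the rebuilt shControl levels, centred on their median difference, matched the CPM within 0.00107 on the log2 scale. This covers the 32 genes except TFEB, whose mean was below the minimum for this check. The deposited sign was checked on tables that share controls; Huh7 MS7126 has no such partner. Differences between compounds or lines used the root of the summed squared SE, adjusted over all genes. Both tests were tested on simulated data. The members and lists were chosen with earlier results of these data known. Named genes were the called members with the largest change in each class (up to 6 hydrolases and up to 4 of another class), TFEB, LAMP1 and CTSD always, and 2 called genes in each other list; not all of the last are printed, and values set side by side across groups include genes not named by the rule in each of them.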

Additional observations from a re-analysis of the deposited data

Results flagged for a closer look

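The response to MS7126 differed between HepG2 and Huh7 for 2 of the 32 lysosome genes by a test of the difference itself. Of these, 1 was higher and 1 lower in HepG2. Over all genes 3.06% were higher and 2.65% lower, so the count was near that of all genes. NPC2 fell in HepG2 and did not pass in Huh7, with a difference, HepG2 minus Huh7, of -0.80 on the log2 scale. PSAP had values of opposite sign, of which only the fall in Huh7 passed, with a difference of 1.02. The labelled time is 48 h in HepG2, while Huh7 is given as 24 h in its own label and 48 h in another, so line and time cannot be told apart.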

How the results depend on the processing

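No value changed sign under any alternative run. The stricter threshold, the wider adjustment, the minimum mean and the covariance of shared controls reused the same fold changes. No sign could change in these runs, which gave most of the checks counted next. The covariance was assumed rather than measured and only made the SE smaller, so it could hardly remove a call. Counted once for each called result and each alternative, 503 checks kept their side of the threshold and 55 lost it. Genes called only under an alternative were left out of this tally. For C24 in HepG2, 7 called genes became 2 at an adjusted p of 0.01 and 4 with adjustment over all genes with a p-value. For Huh7 shEZH2, 17 called genes became 11 with DESeq2 and 11 in the authors' deposited table, where CTSH, GLA, LIPA, ATP6V1B2, SCARB2 and TFEB no longer passed; over all genes 5649 were called by edgeR, 3434 by DESeq2 and 3423 in the authors' deposited table. Leaving out each library in turn gave 13 to 16 called genes. GLA lost its call without any 1 of the 4 libraries, SCARB2 without any 1 but shControl replicate 1, LIPA and ATP6V1B2 without shEZH2 or shControl replicate 2, and CTSH without shEZH2 replicate 2. A lone library was assumed to vary like the other group. Deviations of same-numbered libraries had a correlation of -0.0257 over 9870 genes. With 2 libraries a group, this cannot show whether a small effect went with the replicate number. A replicate block gave 16 called genes, 15 of them shared. With the covariance of shared controls, members that differ rose to 7 (MS7126 against C24), 4 (against MS7126N2), 5 (MS8815 against EPZ-6438) and 2 (against MS8815N); over all genes the counts were 1816 against 850 for C24, 1469 against 589 for MS7126N1, 744 against 244 for MS7126N2, 1210 against 490 for EPZ-6438 and 921 against 313 for MS8815N. At an adjusted p of 0.01, all-gene counts were 1261 against 2004 for MS7126 in HepG2, 272 against 572 for C24, 18 against 30 for MS7126N1, 61 against 105 for MS7126N2 and 1197 against 1829 for MS8815. The cause was not tested. With 2 libraries a group, small changes cannot be resolved, and members near 10 normalized counts (MANBA and CTSZ in HepG2 compound tables, Gla and Hexa in WEHI-231) have wide errors.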

Other observations

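MANBA, a beta-mannosidase, was listed at very different levels in tables of the same line. Scaled to the summed mean of each table (CPM), its level was 23.2 CPM in the HepG2 #664 table and 0.374 CPM in the HepG2 C24 table; 11 of 10222 genes (0.108%) had at least this ratio. In Huh7 it was 26.1 CPM in the shEZH2 table and 0.856 CPM in the MS7126 table, a ratio that 37 of 11212 genes (0.33%) reached. These tables were normalized separately, the gene was singled out after its values were seen, and the cause was not tested.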
